A study of Mus musculus with 16 samples.

Results

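The proteasome genes described here are the 48 genes whose symbol is Psm followed by one of the letters a to g and a number, out of 43437 genes in a table of mouse 8-cell embryos. By role they were 7 alpha-ring and 7 beta-ring subunits of the core particle, 6 ATPases and 11 other subunits of the regulatory particle, 4 core assembly chaperones, 3 regulatory-particle chaperones, 4 activators, 1 inhibitor, 3 immunoproteasome beta subunits, a thymus beta subunit and a testis alpha subunit. The 16 libraries fell into groups of 4 that differed in the double-stranded RNA injected at the zygote stage: against Tfap2c (Tfap2cKD), against Tead4 (Tead4KD), against both (DoubleKD), or against GFP as the control (dsGFP). Tfap2c encodes the AP-2 gamma transcription factor and Tead4 a TEA-domain factor, and both act in the first lineage choice of the mouse embryo. Each library was a pool of 10 whole embryos, about 80 cells, so a value is an average over embryos in which knockdown may have differed. Every group held 2 libraries of cross B (B1 and B2) and 2 of cross A (A1 and A2). The mothers were C57BL/6J×DBA/2J in cross B and C57BL/6J×CBA/J in cross A, and the fathers in both were labelled C57BL/6J×DBA with a strain number that runs up from library to library. The labels name no batch, and nothing in them says whether libraries of a group came from separate injection sessions, so the tests measure the spread between these libraries.

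The proteasome degrades proteins that carry ubiquitin chains. Its barrel-shaped core is built from outer alpha rings and inner beta rings, in which Psmb5, Psmb6 and Psmb7 hold the proteolytic sites, and a regulatory particle recognises, unfolds and feeds in the substrate through a ring of Psmc ATPases. In early embryos it removes maternal proteins as the embryonic genome takes over.

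Values are FPKM, fragment counts scaled by transcript length and library total, so that levels can be set side by side between genes. The tests took genes that reached 1 FPKM in 4 or more libraries, which 45 of the 48 members and 11422 genes in all did. Psmb8, Psmb9 and Psmb11 stayed below. Changes are differences of log2(FPKM + 1) from a limma fit with cross as a term, which understates changes of low genes, and a gene is called where its p, after Benjamini-Hochberg adjustment across every gene in the fit, was under 0.05. The summed FPKM of the 48 members made up 1.32% to 1.74% of a library's total. Tfap2c averaged 15.8 ± 1.65 FPKM in Tfap2cKD and 16.2 ± 0.342 FPKM in DoubleKD, against 35.7 ± 6.60 FPKM in dsGFP (SD, n = 4 each). Tead4 averaged 7.66 ± 2.49 FPKM in Tead4KD and 9.49 ± 3.94 FPKM in DoubleKD, against 48.6 ± 7.00 FPKM in dsGFP, and was also lower in Tfap2cKD, at 28.3 ± 7.77 FPKM (SD, n = 4 each). Tfap2c in Tead4KD was at 34.8 ± 1.67 FPKM (exact two-sided permutation p = 0.8286). Each of the other differences from dsGFP had an exact two-sided permutation p of 0.0286, the smallest that 4 against 4 libraries can give. The embryo marker Dppa3 was at 5509 FPKM or more in every library, while no cumulus marker passed 0.189 FPKM and no sperm marker 0.909 FPKM in any library. The 6 blood markers summed to 29.3 to 63.0 FPKM in Tfap2cKD, 20.3 to 50.9 FPKM in Tead4KD and 40.7 to 77.7 FPKM in DoubleKD, against 9.86 to 26.8 FPKM in dsGFP. Nearly all of it was Hba-a1 and Hba-a2, with Hbb-bs, Hbb-bt and Ptprc listed at 0 in every library. The 8 preimplantation markers summed to 9741 to 11106, 11470 to 13556 and 9875 to 12882 FPKM in the same knockdowns, against 13171 to 15602 FPKM in dsGFP. Nearly all of that sum was Dppa3 and Dppa5a. Of the 8, 1 was called higher and 5 lower in Tfap2cKD, 1 higher and 0 lower in Tead4KD, and 1 higher and 4 lower in DoubleKD. Of all genes tested, 29.6%, 6.13% and 25.1% were called in these knockdowns. The part of the blood and preimplantation markers in the changes below was not tested. In bulk samples, fewer cells of a type and less RNA per cell cannot be told apart.

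In the control embryos the 31 genes of the constitutive proteasome ranked between 160 and 2567 of all genes by mean FPKM, and of the dedicated immune, thymus and testis subunits Psmb10 averaged 7.38 ± 3.75 FPKM (SD, n = 4) and the other 4 under 1 FPKM. Psma6, an alpha-ring subunit on chromosome 12, had 949.7 and 1059 FPKM in the B libraries and 955 and 989 FPKM in the A libraries of dsGFP, a mean of 988 ± 50.3 FPKM (SD, n = 4). Psma7 followed at 869 ± 139 FPKM and Psma3 at 804 ± 86.7 FPKM, both alpha-ring subunits, and the libraries of these neighbours in the order overlapped. Psma7 had 974.6 and 1003 FPKM in the B libraries and 758 and 739.8 FPKM in the A libraries, and Psma3 had 841 and 900.3 FPKM in the B libraries and 698 and 776 FPKM in the A libraries.

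Alpha-ring subunits spanned 350.1 to 988 FPKM by their dsGFP means, a 2.82-fold range, and beta-ring subunits 309 to 617 FPKM, a 1.99-fold range, although each ring holds its subunits in equal number. The 6 ATPases spanned 118 FPKM (Psmc3) to 448 FPKM (Psmc1), or 3.80-fold. The 11 non-ATPase subunits were the most uneven, with a 17.7-fold span between Psmd13 at 34.1 ± 0.714 FPKM and Psmd11 at 604 ± 50.3 FPKM (SD, n = 4 each). Psmd11 and Psmd13 are both scaffold subunits of the regulatory particle. Along the order of the 45 tested members, the dsGFP libraries of neighbours overlapped except at 4 steps: Psmc6 over Psmc3, Psmc3 over Psmd1, Psmd9 over Psme3, and Psme2 over Psma8. Across the 31 constitutive subunits, level and length of the longest transcript (766 to 3112 nucleotides) had a Spearman rho of -0.49 (n = 31 genes measured in the same libraries), which is a description across genes that are not independent.

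**Figure D1:**
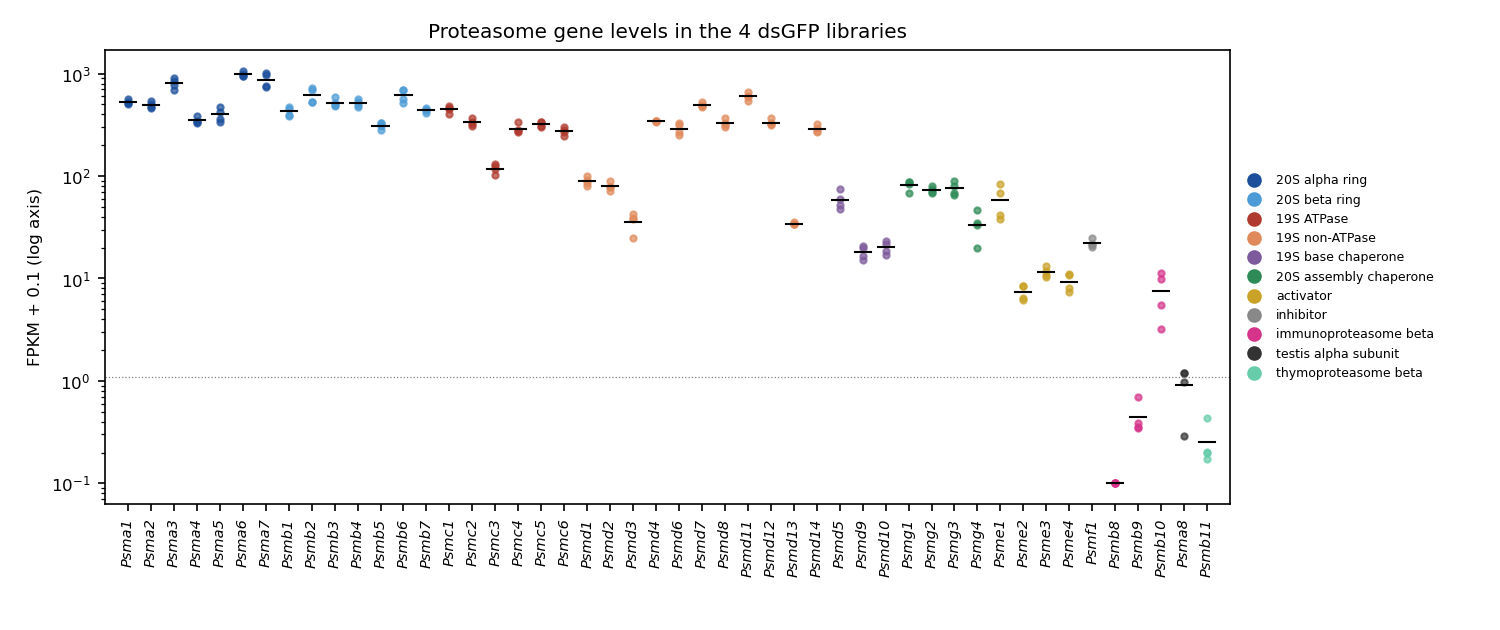
FPKM + 0.1 on a log axis for the 48 proteasome genes in the 4 dsGFP libraries (points) with the mean (bar), coloured by role; the dotted line is 1 FPKM. Constitutive subunits lie between 34.1 and 988 FPKM by their means, chaperones, activators and the inhibitor between 7.30 and 81.6 FPKM, and Psmb8, Psmb9, Psma8 and Psmb11 under 1 FPKM.

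The subunits that can be swapped into the core were at most 2.48% of the summed FPKM of their pair in any library. Psmb8, the immunoproteasome partner of Psmb5, was listed at 0 in 14 of 16 libraries, with 0.114 FPKM in Tfap2cKD A2 and 0.104 FPKM in DoubleKD B2. Psmb5 had in the B and then the A libraries 244, 365, 432 and 375 FPKM in Tfap2cKD, 311, 318, 312 and 323 FPKM in Tead4KD and 343, 336, 352 and 381 FPKM in DoubleKD, against 305, 327, 327 and 278 FPKM in dsGFP. Psmb5 was lowest in Tfap2cKD B1 and highest in Tfap2cKD A1, and all DoubleKD libraries lay above all dsGFP libraries.

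Psmb9, the partner of Psmb6, had in the same order 0.297, 0.369, 0.996 and 0.367 FPKM in Tfap2cKD, 3.16, 0.591, 0.363 and 0.137 FPKM in Tead4KD and 0.847, 0.232, 0.544 and 0.112 FPKM in DoubleKD, against 0.593, 0.254, 0.285 and 0.247 FPKM in dsGFP. Psmb6 had 515, 714, 714 and 606 FPKM in Tfap2cKD, 667, 698, 595 and 588 FPKM in Tead4KD and 576, 651, 615 and 606 FPKM in DoubleKD, against 689, 697, 558 and 513 FPKM in dsGFP. Psmb9 passed 1 FPKM in Tead4KD B1 alone and was at most 0.471% of the pair's sum. Psmb7 had 376, 424, 454 and 440.0 FPKM in Tfap2cKD, 468, 469, 434 and 448 FPKM in Tead4KD and 485, 472, 424 and 436 FPKM in DoubleKD, against 445, 466, 446 and 417 FPKM in dsGFP. The groups of Psmb6 and of Psmb7 overlapped. Psmb10, the partner of Psmb7, was the best detected of the 3, at 0.572% to 2.48% of the Psmb7 and Psmb10 sum. Psma8, the testis partner of Psma7, reached at most 1.85 FPKM, and Psmb11, the thymus subunit, at most 0.332 FPKM. Psma7 itself had in the B and then the A libraries 758, 1008, 988 and 882 FPKM in Tfap2cKD, 1040.2, 1050.1, 793 and 855 FPKM in Tead4KD and 951, 1069, 838 and 883 FPKM in DoubleKD, beside its dsGFP values above. Psma8 reached 1 FPKM in 6 libraries, of which 5 were of cross A. In cross B it had 0.993 and 0.242 FPKM in Tfap2cKD, 0.0865 and 0.137 FPKM in Tead4KD, 0.735 and 0.619 FPKM in DoubleKD and 1.08 and 0.190 FPKM in dsGFP. In cross A it had 0.662 and 1.02 FPKM in Tfap2cKD, 1.25 and 1.85 FPKM in Tead4KD, 0.954 and 1.66 FPKM in DoubleKD and 1.09 and 0.885 FPKM in dsGFP.

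Depletion of Tfap2c lowered an ATPase gene and a chaperone gene and gave no called change in the other proteasome genes. Of 45 members, 0 were called higher and 2 lower in Tfap2cKD against dsGFP, Psmc4 and Psmg2, beside 29.6% of all genes tested called in either direction, 16.3% higher and 13.2% lower. The count of members depended on single libraries: it was 4 without Tfap2cKD A1, 4 without dsGFP A1 and 5 without Tfap2cKD B1, each time with Psmc4 and Psmg2 among the called, and 8, all lower, after median-ratio rescaling of the libraries. At an unadjusted p under 0.05, 4 members were higher and 5 lower, beside 40.1% of all genes. The median log2 change of the members was -0.04 and that of all genes tested 0.06. For 29 of the 31 constitutive subunits the 95% interval of the change lay within 1.5-fold either way. Such intervals, here and below, are for a change averaged over the crosses and do not bound the change within either cross. Most of the 31 constitutive subunits rose within cross A and fell within cross B, such as Psmb4 (log2 change 0.28 and -0.33) and Psmb2 (0.14 and -0.50). The rest moved the same way in both, such as Psma6 (0.05 and 0.02). By role, 1 of 6 ATPases and 1 of 4 core assembly chaperones were called lower, while 5 and 3 of them had negative changes. None of the 7 alpha-ring, 7 beta-ring or 11 non-ATPase subunits was called.

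Psmc4 (ENSMUSG00000030603, chr7:28041702-28050092 in mm10) encodes an ATPase of the ring that unfolds substrates. It had 132 and 182 FPKM in the B libraries and 239 and 201 FPKM in the A libraries of Tfap2cKD, against 284 and 334 FPKM in the B libraries and 267 and 276 FPKM in the A libraries of dsGFP. Every Tfap2cKD library was below every dsGFP library, and Tfap2cKD B1 was the lowest of all. The mean was 64.9% of dsGFP (log2 change -0.65, SE 0.153, limma adjusted p = 0.00535), with a log2 change of -0.99 within cross B and -0.31 within cross A. Psmc4 stayed called in each of the 26 alternatives of the processing, the left-out libraries included. The other 5 ATPases, Psmc1, Psmc2, Psmc3, Psmc5 and Psmc6, had log2 changes between -0.18 and 0.14, and none was called in the main fit. After median-ratio rescaling of the libraries, Psmc2, Psmc5 and Psmc6 were also called lower.

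The 250 bases upstream of the Psmc4 start are shown because Psmc4 was the member that fell most after depletion of an AP-2 factor, with the match to the AP-2 consensus GCCNNNGGC in capitals, and those of Psmg1 because it was the member called higher in DoubleKD, with its matches to TTCNNNGAA and CCGGAAG in capitals. Both are from RefSeq on GRCm38.p6 (the assembly of mm10), minus strand, at chr7:28050093-28050342 and chr16:95990961-95991210.
Psmc4: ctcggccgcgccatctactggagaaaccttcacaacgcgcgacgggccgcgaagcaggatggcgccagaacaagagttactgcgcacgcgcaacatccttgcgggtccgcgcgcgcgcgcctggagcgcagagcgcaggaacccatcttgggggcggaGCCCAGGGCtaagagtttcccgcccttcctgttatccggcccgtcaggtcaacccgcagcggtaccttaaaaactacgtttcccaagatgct
Psmg1: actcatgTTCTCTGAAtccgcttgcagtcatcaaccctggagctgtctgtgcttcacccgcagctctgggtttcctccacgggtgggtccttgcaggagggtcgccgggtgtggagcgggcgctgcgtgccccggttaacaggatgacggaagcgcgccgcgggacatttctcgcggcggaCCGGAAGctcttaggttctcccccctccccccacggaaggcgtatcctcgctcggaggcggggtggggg
The first RefSeq promoter entry of each gene was searched on both strands, for 40 members and 27018 genes. GCCNNNGGC was present upstream of 4 of the 40 members (Psma7, Psmc4, Psmc6 and Psmd1) and of 13.6% of all genes. The TEAD motif GGAATG was present upstream of 3 members (Psmb5, Psmd8 and Psmd9) and of 12.6% of all genes, and the antioxidant response element TGACNNNGC upstream of 5 members and of 10.2%. The ETS motif CCGGAAG was present upstream of 11 members and of 7.05% of all genes, CCAAT upstream of 14 and of 34.5%, and the interferon-type motif TTCNNNGAA upstream of 2 and of 7.18%. A match describes letters in the window and is not evidence of binding. The matches shown do not overlap one another.

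Psmg2 (ENSMUSG00000024537), which pairs with Psmg1 as a chaperone that starts the alpha ring, had 50.03 and 58.0 FPKM in the B libraries and 60.4 and 56.3 FPKM in the A libraries of Tfap2cKD, against 69.6, 79.1, 67.9 and 74.2 FPKM in the B and then the A libraries of dsGFP. The groups did not overlap. The mean was 77.3% of dsGFP (log2 change -0.37, SE 0.102, limma adjusted p = 0.0144), and the call held in all 26 alternatives. Its partner Psmg1 lay the other way, at 90.3 to 103 FPKM in Tfap2cKD against 67.5 to 87.8 FPKM in dsGFP, without overlap but not past the threshold (log2 change 0.25, adjusted p = 0.0681). Psmg3, which pairs with Psmg4 in a second chaperone, had in the B and then the A libraries 69.0, 70.8, 72.4 and 59.7 FPKM in Tfap2cKD, 107, 97.7, 72.9 and 86.9 FPKM in Tead4KD and 80.4, 62.1, 59.8 and 56.2 FPKM in DoubleKD, against 80.3, 89.5, 67.6 and 64.6 FPKM in dsGFP. Psmg4 had in the same order 25.2, 35.6, 31.9 and 27.9 FPKM in Tfap2cKD, 31.7, 39.6, 31.9 and 37.8 FPKM in Tead4KD and 31.3, 35.03, 23.3 and 26.5 FPKM in DoubleKD, against 34.5, 46.7, 32.8 and 19.8 FPKM in dsGFP. Neither was called against dsGFP, with log2 changes in Tfap2cKD of -0.14 and -0.10, and all their groups overlapped with dsGFP. In all, 3 of the 45 members had non-overlapping libraries (Psmc4, Psmg2 and Psmg1), beside 22.2% of all genes tested.

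Psme1 and Psme2 form one activator cap of the core that interferon induces. Psme1 had 60.2 and 44.8 FPKM in the B libraries and 86.0 and 83.2 FPKM in the A libraries of Tfap2cKD, against 41.3 and 38.05 FPKM in the B libraries and 83.1 and 68.3 FPKM in the A libraries of dsGFP. Its log2 change was 0.27 (adjusted p = 0.0735). Psme2, which had 3.88 and 4.04 FPKM in the B libraries and 5.49 and 8.81 FPKM in the A libraries of Tfap2cKD, had a log2 change of -0.39 (adjusted p = 0.116), and neither gene passed the threshold. Psme3, a nuclear activator, had in the B and then the A libraries 9.40, 11.3, 12.6 and 10.9 FPKM in Tfap2cKD, 12.6, 13.1, 11.6 and 9.49 FPKM in Tead4KD and 11.4, 13.4, 12.4 and 11.99 FPKM in DoubleKD, against 13.03, 10.7, 11.6 and 10.2 FPKM in dsGFP. Its groups all overlapped, with log2 changes of -0.04, 0.03 and 0.10 in the 3 knockdowns. The inhibitor Psmf1, which blocks the core, had in the same order 16.3, 15.8, 21.6 and 22.4 FPKM in Tfap2cKD, 23.7, 22.8, 20.6 and 26.2 FPKM in Tead4KD and 20.8, 16.8, 21.0 and 23.1 FPKM in DoubleKD, against 21.7, 20.4, 21.2 and 24.5 FPKM in dsGFP. Both B libraries of Tfap2cKD lay below all dsGFP libraries, the groups overlapped, and the log2 change in Tfap2cKD was -0.21 (adjusted p = 0.175).

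The regulatory-particle chaperones hold the ATPases until the particle is complete, and none of the 3 was called against dsGFP in any knockdown. Psmd10 had in the B and then the A libraries 22.3, 27.1, 25.0 and 24.0 FPKM in Tfap2cKD, 17.1, 12.65, 28.5 and 22.4 FPKM in Tead4KD and 20.2, 21.7, 23.2 and 28.6 FPKM in DoubleKD, against 18.5, 22.9, 21.8 and 16.8 FPKM in dsGFP. The log2 changes were 0.29, -0.04 and 0.21, and the lowest library was Tead4KD B2. Psmd10 overlaps Atg4a in the RefSeq annotation, and Atg4a was called higher in Tfap2cKD. Psmd5 had log2 changes of -0.15, -0.08 and -0.10 in the 3 knockdowns. Psmd9 had 11.3 and 14.1 FPKM in the B libraries and 26.3 and 22.05 FPKM in the A libraries of Tfap2cKD, both B values below both A values, and a log2 change of -0.03.

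**Figure D2:**
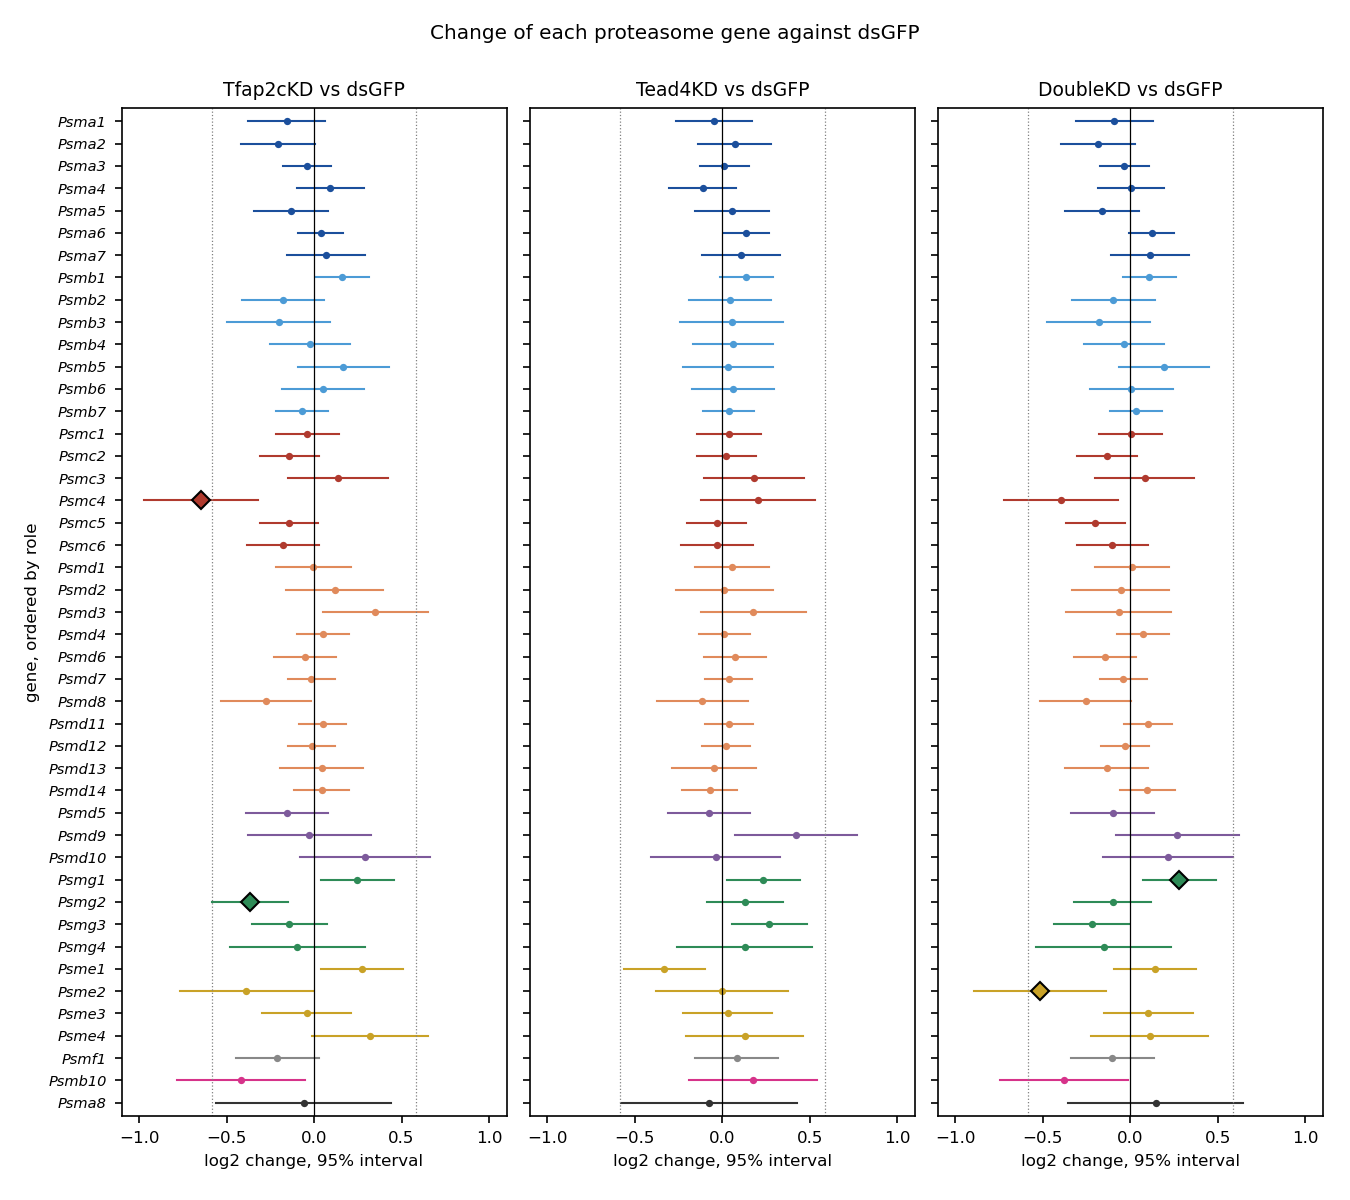
Log2 change (point) with its 95% interval (line) for each tested proteasome gene in Tfap2cKD, Tead4KD and DoubleKD against dsGFP, coloured by role; diamonds mark called genes and dotted lines a 1.5-fold change either way. Psmc4 and Psmg2 in Tfap2cKD, and Psmg1 and Psme2 in DoubleKD, carry diamonds.

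Depletion of Tead4 gave 0 called members of 45 in limma's test, higher or lower, beside 6.13% of all genes tested, 3.35% higher and 2.78% lower. At an unadjusted p under 0.05, 4 members were higher (Psmg3, Psmd9, Psmg1 and Psma6) and 1 was lower (Psme1), beside 21.1% of all genes. The median log2 change of the members was 0.04, against 0.05 for all genes, and the 95% intervals of all 31 constitutive subunits lay within 1.5-fold. Psmd9, a chaperone of the ATPase ring, had 25.6 and 22.3 FPKM in the B libraries and 21.3 and 28.2 FPKM in the A libraries of Tead4KD, against 14.9 and 16.5 FPKM in the B libraries and 20.7 and 19.7 FPKM in the A libraries of dsGFP. In DoubleKD it had 17.4, 23.2, 22.45 and 24.3 FPKM in the same order, overlapping with dsGFP. Psmd9 in Tead4KD was the 1 member without overlap, beside 9.67% of all genes, and its log2 change of 0.42 (SE 0.164) had an adjusted p of 0.148. Psme1 had 29.0, 31.2, 64.0 and 60.3 FPKM in the B and then the A libraries of Tead4KD, and its log2 change of -0.33 (adjusted p = 0.0886) was alike in size within cross B (-0.39) and cross A (-0.28). It was called lower when Tfap2cKD B1 was left out of the fit, and no member was called in the other 25 alternatives. Psmc4 had 391, 371, 275 and 309 FPKM and Psmg2 had 91.2, 92.7, 64.0 and 73.7 FPKM in the B and then the A libraries of Tead4KD, and neither was called.

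Depletion of both factors gave 1 member called higher, Psmg1, and 1 called lower, Psme2, of 45, beside 25.1% of all genes tested, 13.9% higher and 11.3% lower. At an unadjusted p under 0.05, 1 member was higher and 5 were lower (Psmb10, Psmc4, Psmc5, Psme2 and Psmg3), beside 36.6% of all genes. The median log2 change was -0.04 for the members and 0.05 for all genes, and 30 of 31 constitutive subunits had intervals within 1.5-fold. Psmg1 (ENSMUSG00000022913, chr16:95979933-95990960 in mm10) had 92.7 and 96.2 FPKM in the B libraries and 99.7 and 107 FPKM in the A libraries of DoubleKD, against 67.5 and 86.9 FPKM in the B libraries and 87.8 and 84.1 FPKM in the A libraries of dsGFP. The groups did not overlap, dsGFP B1 was the lowest library, and the log2 change was 0.28 (SE 0.0972, limma adjusted p = 0.0469). Psmg1 was not called in Tfap2cKD (log2 change 0.25, limma adjusted p = 0.0681) or Tead4KD (0.23, 0.176). In Tead4KD it had 111 and 90.1 FPKM in the B libraries and 86.1 and 97.2 FPKM in the A libraries. DoubleKD differed from Tfap2cKD by 0.03 and from Tead4KD by 0.05 on the log2 scale, and neither difference was called. Psme2 had 4.43 and 3.77 FPKM in the B libraries and 6.84 and 4.39 FPKM in the A libraries of DoubleKD, against 8.40 and 6.09 FPKM in the B libraries and 8.30 and 6.41 FPKM in the A libraries of dsGFP. The groups overlapped through DoubleKD A1, and the log2 change was -0.52 (SE 0.177, limma adjusted p = 0.0445). Psmg1 lost its call in 18 of the 26 alternatives and Psme2 in 17, and both kept their direction. Both calls were lost without cross as a term, with the replicate number as a block and with no filter on low values, and a fit of the compared groups alone called Psmc4 and Psmc5, both lower, in their place. In DoubleKD the 2-cell stage gene Zfp352 was called higher (13.8 ± 15.4 against 4.41 ± 4.24 FPKM in dsGFP, SD, n = 4 each), and DoubleKD B1 had the highest summed 2-cell markers of all libraries, 137 FPKM. The part of these in the changes was not tested. With 1 library left out the count of called members was 0 without DoubleKD A2, DoubleKD B1, DoubleKD B2, Tfap2cKD B2, Tead4KD A2, Tead4KD B2 or dsGFP A1, 1 without DoubleKD A1, Tfap2cKD A2, Tead4KD A1, Tead4KD B1, dsGFP A2, dsGFP B1 or dsGFP B2, and 4 without Tfap2cKD B1.

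Psmc4 was also below every dsGFP library in DoubleKD, at 220.5, 234, 213 and 212 FPKM in the B and then the A libraries, a mean of 219.9 ± 10.4 FPKM against 290.3 ± 30.1 FPKM (SD, n = 4 each). Its log2 change of -0.39 (SE 0.153) had an adjusted p of 0.0724 and passed the threshold in 5 of the 26 alternatives. Psmg2 in DoubleKD was at 67.6, 71.8, 65.0 and 66.004 FPKM, overlapping with dsGFP (log2 change -0.10, adjusted p = 0.513). In DoubleKD 6 of the 45 members had libraries that did not overlap with dsGFP, Psmg1, Psmc4, Psmc5, Psmd8, Psma2 and Psmb5, beside 20.6% of all genes. The 3 comparisons with dsGFP share their control libraries, so their values are set side by side and not correlated.

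**Figure D3:**
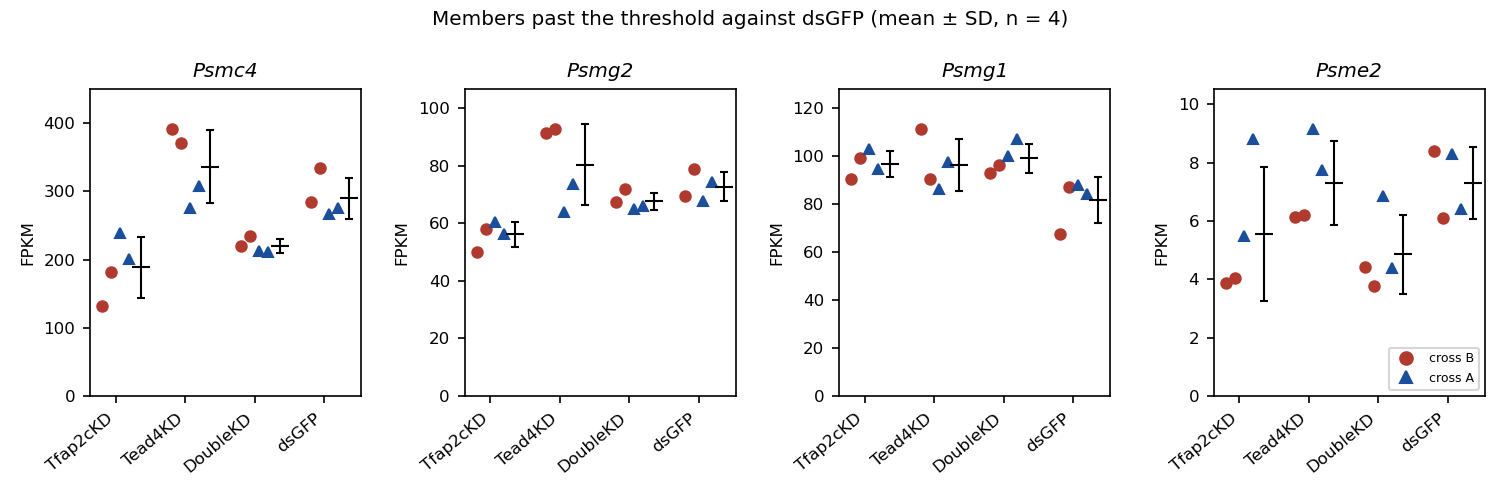
FPKM of Psmc4, Psmg2, Psmg1 and Psme2 in each library of Tfap2cKD, Tead4KD, DoubleKD and dsGFP, with circles for cross B, triangles for cross A and the group mean ± SD (n = 4) beside them. Psmc4 lies between 132 and 239 FPKM in Tfap2cKD and between 267 and 334 FPKM in dsGFP.

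Between the knockdowns, DoubleKD against Tfap2cKD gave 0 called members in limma's test, beside 0.14% of all genes, 0.035% higher and 0.105% lower. At an unadjusted p under 0.05, 1 was higher (Psmg2) and 1 lower (Psmd3), beside 9.52% of all genes, and Psmg2 was the 1 member without overlap, beside 3.39%. DoubleKD against Tead4KD gave 1 member higher and 4 lower of 45, beside 23.7% of all genes (10.9% higher and 12.9% lower). Psme1 was higher (62.5 ± 18.4 against 46.1 ± 18.6 FPKM), and Psmg3 (64.6 ± 10.8 against 91.2 ± 14.8 FPKM), Psmc4 (219.9 ± 10.4 against 337 ± 53.9 FPKM), Psmb10 (5.17 ± 2.14 against 8.18 ± 3.45 FPKM) and Psme2 (4.86 ± 1.36 against 7.30 ± 1.43 FPKM) were lower in DoubleKD (SD, n = 4 each). Tfap2cKD against Tead4KD gave 1 higher and 5 lower, beside 29% of all genes (13.8% higher and 15.2% lower). Psme1 was again higher (68.6 ± 19.6 against 46.1 ± 18.6 FPKM, limma adjusted p = 0.000737), and Psmc4 (log2 change -0.85, limma adjusted p = 0.000681), Psmg2 (-0.50, 0.00196), Psmg3 (-0.41, 0.00655), Psmb10 (-0.59, 0.0168) and Psma2 (-0.28, 0.0465) were lower in Tfap2cKD. Of these, Psmc4, Psmg2 and Psmg3 had no overlap between the groups, and they were the 3 members of 45 without it, beside 22.2% of all genes. Between DoubleKD and Tead4KD the 3 without overlap were Psma2, Psmb5 and Psmc4, beside 18.7%. With Tead4KD A2, Tead4KD B1, Tead4KD B2 or DoubleKD B2 left out, 3 members remained called between DoubleKD and Tead4KD, which were Psmc4, Psme1 and Psmg3. Both comparisons use the Tead4KD libraries, in which Psmc4, Psmg2 and Psmg3 averaged above dsGFP and Psme1 below it, and without cross as a term each kept 2 calls, Psmc4 and Psmg3 in DoubleKD and Psmc4 and Psmg2 in Tfap2cKD.

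The non-additive part, DoubleKD minus the sum of the single changes, gave 0 called members in limma's test, beside 0.753% of all genes, 0.385% higher and 0.368% lower. At an unadjusted p under 0.05 there were 0 higher and 2 lower, Psmd3 (-0.59) and Psmg3 (-0.35 on the log2 scale), beside 12% of all genes. Psmd3, a scaffold subunit, had 35.2, 42.9, 26.9 and 31.0 FPKM in DoubleKD, 42.2, 45.7, 50.9 and 42.1 FPKM in Tfap2cKD and 48.1, 44.3, 33.2 and 35.7 FPKM in Tead4KD, against 42.6, 38.4, 37.97 and 24.5 FPKM in dsGFP, in each case B before A. All groups overlapped with dsGFP.

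In cross B against cross A, with 8 libraries each, 7 members were higher and 6 lower of 45, beside 33.5% of all genes tested (17.2% higher and 16.3% lower), so the members' share was near that of all genes. Before adjustment, at a p under 0.05, 9 were higher and 7 lower, beside 43.6% of all genes. The count of 13 was 6 with no filter on low values, 8 without Tead4KD B1, Tead4KD B2 or dsGFP B2 and 18 without Tfap2cKD B1. Whether a cross difference comes from the strains or from a batch cannot be told apart, since the labels record neither the sessions nor the sequencing runs. The higher members were Psme4, Psmg3, Psmd6, Psmd1, Psma7, Psmd3 and Psma3, and the lower ones Psme1, Psmb10, Psmd5, Psma8, Psmd9 and Psme2. Psma8 entered the test mainly through cross A libraries, so its call is not independent of the filter. Mitochondrial transcripts made up 7.06% to 9.93% of the summed FPKM in cross B libraries and 8.25% to 12.1% in cross A libraries, and the summed 4 markers of the 2-cell stage were 9.99 to 137 FPKM in cross B (137 FPKM in DoubleKD B1) and 1.33 to 6.70 FPKM in cross A. The blood genes Hba-a1 and Hba-a2 were called lower in cross B, and the trophectoderm genes Krt8 and Krt18 and 3 of the 4 markers of the 2-cell stage were called higher. Their part in the cross differences was not tested.

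Psme1 (ENSMUSG00000022216, chr14:55578494-55581527 in mm10) averaged 42.3 ± 10.3 FPKM in the 8 libraries of cross B and 75.1 ± 9.74 FPKM in the 8 of cross A (SD). Cross B ranged between 29.0 and 60.2 FPKM and cross A between 60.3 and 86.0 FPKM, so the crosses just failed to overlap. The log2 change was -0.84 (SE 0.0773, limma adjusted p = 4.68e-06). The 250 bases upstream, shown because this gene had the smallest p of the members between crosses, are from RefSeq on GRCm38.p6, plus strand, chr14:55578244-55578493, and hold no match to the 6 motifs.
Psme1: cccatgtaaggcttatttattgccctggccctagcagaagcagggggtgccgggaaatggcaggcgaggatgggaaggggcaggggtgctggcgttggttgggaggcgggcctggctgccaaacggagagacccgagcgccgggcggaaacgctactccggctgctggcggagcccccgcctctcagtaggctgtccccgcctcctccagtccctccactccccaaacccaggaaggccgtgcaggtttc
In the RefSeq annotation the span of Psme1 overlaps that of Emc9. Whether strand was used in counting is not given in the sources used here, so reads in the shared stretch may not have been told apart. Across groups Emc9 was called lower in Tfap2cKD and in DoubleKD against dsGFP, and between the crosses its log2 change was -0.05 (adjusted p = 0.858).

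Psmb10 (ENSMUSG00000031897, chr8:105935728-105938392 in mm10) averaged 3.98 ± 1.21 FPKM in cross B and 9.04 ± 2.13 FPKM in cross A (SD, n = 8 each), a log2 change of -1.02 (SE 0.121, limma adjusted p = 3.41e-05). The B values were 2.17 and 3.52 in Tfap2cKD, 4.87 and 5.53 in Tead4KD, 3.97 and 3.20 in DoubleKD and 3.12 and 5.43 FPKM in dsGFP. The A values were 7.39 and 8.09 in Tfap2cKD, 11.03 and 11.3 in Tead4KD, 5.44 and 8.06 in DoubleKD and 11.2 and 9.78 FPKM in dsGFP. Within every group both B libraries lay below both A libraries, and across groups the crosses overlapped only between Tead4KD B2 and DoubleKD A1.

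Psme4 ran the other way, at 13.1 ± 2.62 FPKM in cross B and 7.96 ± 1.36 FPKM in cross A (SD, n = 8 each), with a log2 change of 0.65 (SE 0.110, limma adjusted p = 0.00051). This large activator is linked to acetylated histones. It had 18.6 and 13.9 FPKM in the B libraries and 6.86 and 9.96 FPKM in the A libraries of Tfap2cKD, 11.3, 12.4, 7.37 and 9.80 FPKM in the same order in Tead4KD, 14.9, 12.4, 8.29 and 6.15 FPKM in DoubleKD and 10.7, 10.99, 7.21 and 8.05 FPKM in dsGFP. All B libraries lay above all A libraries, and Tfap2cKD B1 was the highest. Psme4 overlaps Erlec1, which had a log2 change of 0.39 between the crosses (adjusted p = 0.103). Psmd5, which holds ATPase subunits during assembly, was at 47.3 ± 5.05 FPKM in cross B and 62.6 ± 6.31 FPKM in cross A (log2 change -0.40, limma adjusted p = 0.0014). Its values in the B and then the A libraries were 45.1, 48.0, 56.8 and 57.2 FPKM in Tfap2cKD, 46.5, 53.1, 58.0 and 61.3 FPKM in Tead4KD, 49.9, 36.7, 65.1 and 68.2 FPKM in DoubleKD and 47.3, 51.6, 59.5 and 74.6 FPKM in dsGFP. Psme1, Psme4 and Psmd5 were the 3 of 45 members whose crosses did not overlap, beside 3.38% of all genes. Of the chaperones, Psmd5 and Psmd9, 2 of the 3 regulatory-particle chaperones, were lower in cross B, and of the 31 constitutive subunits none was called lower and 5 were called higher, beside 16.3% and 17.2% of all genes. With quantile normalization the members split into 6 higher and 8 lower, Psma3 and Psma7 lost their calls, and Psmd11 was called lower.

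**Figure D4:**
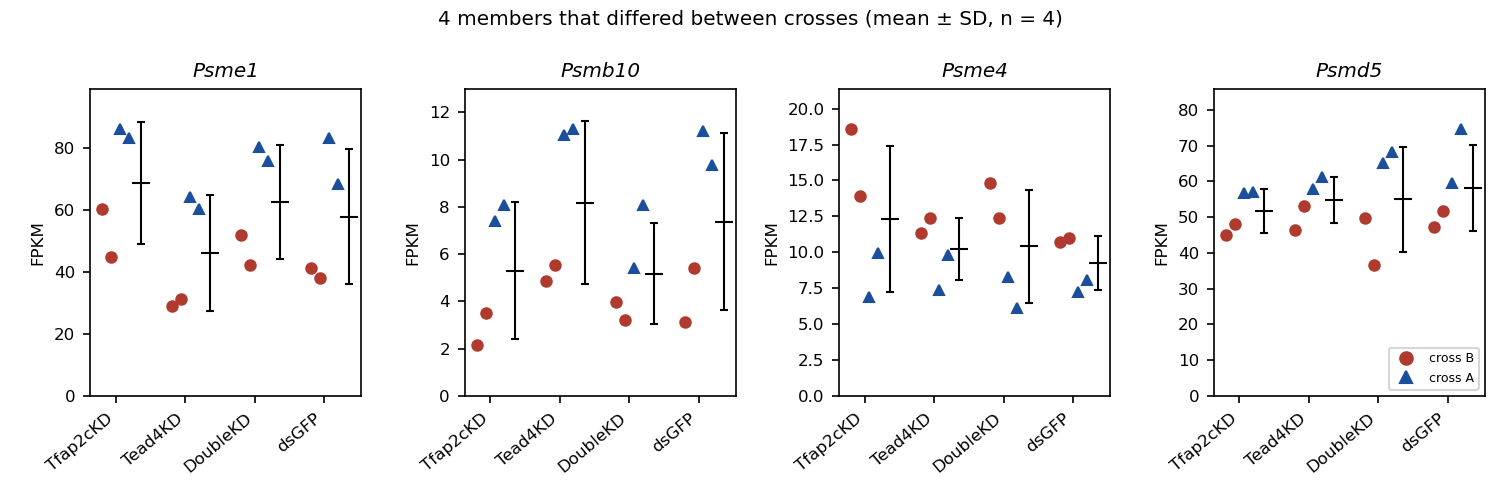
FPKM of Psme1, Psmb10, Psme4 and Psmd5 in each library, by group, with circles for cross B, triangles for cross A and the group mean ± SD (n = 4). Within each group the circles lie apart from the triangles, below them for Psme1, Psmb10 and Psmd5 and above them for Psme4.

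The change in Tfap2cKD was also fitted within each cross. Tfap2c itself had a log2 change in Tfap2cKD of -1.42 within cross A and -0.80 within cross B. Tead4 had -1.19 and -0.39 there, so the targeted gene fell less in cross B. The part of knockdown strength in the differences below was not tested. In Tfap2cKD, 39 of 45 members and 30 of the 31 constitutive subunits had a more negative change in cross B than in cross A, with a median difference of -0.28 log2 units over the members and -0.07 over all genes tested. No gene passed the adjusted threshold for the interaction in limma's test (0% of all genes, 0 members), and the smallest adjusted p among the members was 0.0539 (Psmb2). Before adjustment, the interaction had a p under 0.05 for 19 members, all with a more negative change in cross B, beside 16.5% of all genes. Psmb2, a beta-ring subunit, had 475 and 525 FPKM in the B libraries and 601 and 563 FPKM in the A libraries of Tfap2cKD, against 685 and 729 FPKM in the B libraries and 527 and 526 FPKM in the A libraries of dsGFP. Tfap2cKD B1 was the lowest of all 16 libraries for 16 of the 31 constitutive subunits, and their sum there was 10720.4 FPKM, against 12416.5 FPKM in Tfap2cKD B2. Without Tfap2cKD B1 the unadjusted count was 8 of 45, beside 11.8% of all genes, and it was 12 without Tfap2cKD A1, dsGFP A2 or dsGFP B2. That library also had the lowest estimated relative depth, 0.871 of dsGFP A1 on a scale where the others lay between 0.920 and 1.12, and the part of depth was not tested. In DoubleKD, compared with the same dsGFP libraries, 35 of 45 members and 27 of 31 constitutive subunits also had a more negative change in cross B, with a median difference of -0.11 over the members and -0.06 over all genes, and in Tead4KD 19 and 13. Whether the knockdowns differ in this was not tested. In DoubleKD and Tead4KD 4 members each had an unadjusted p under 0.05 for the interaction, beside 11.2% and 6.98% of all genes.

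**Figure D5:**
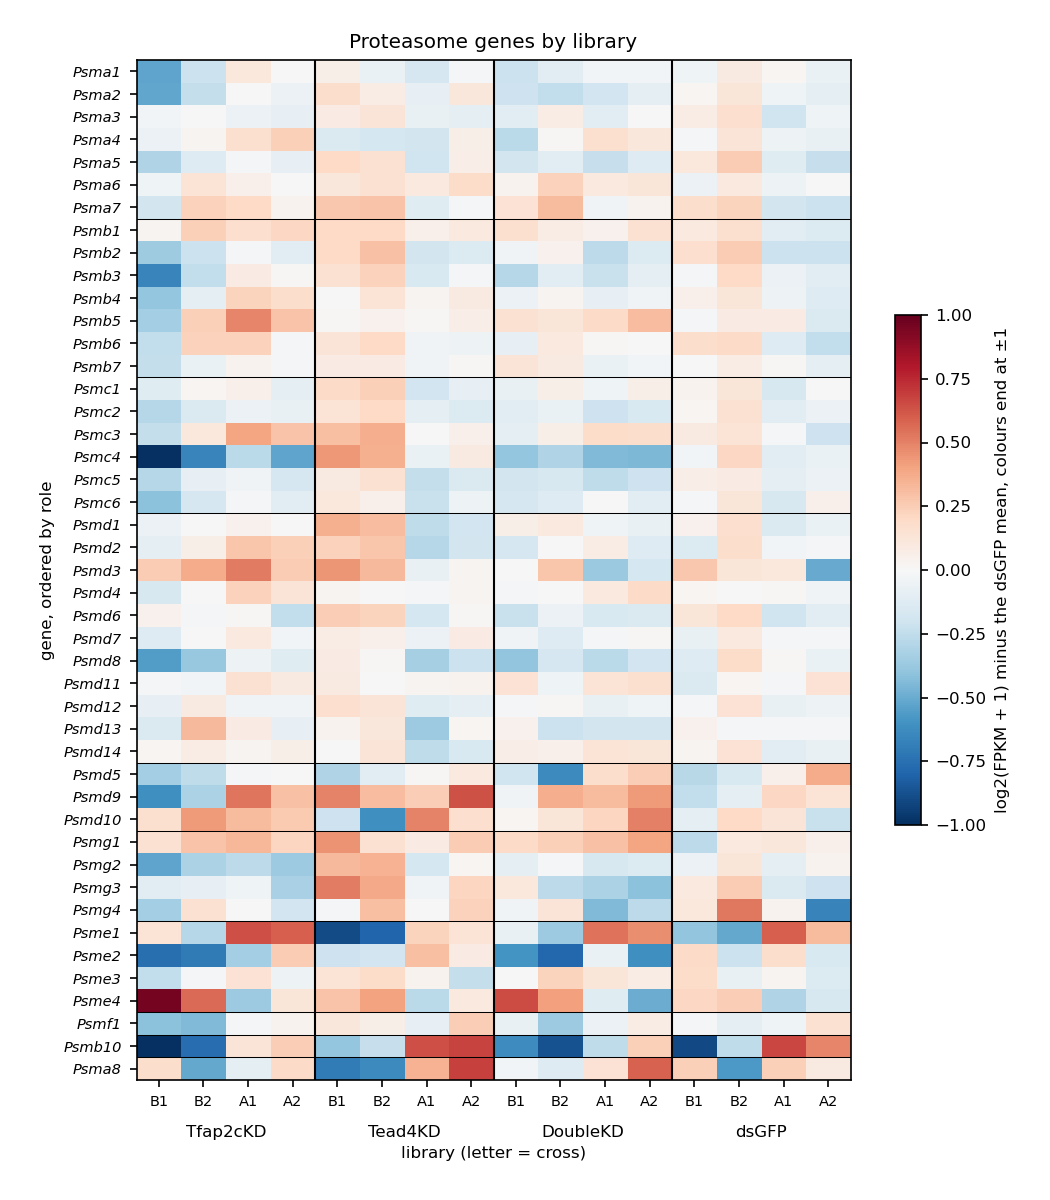
Log2(FPKM + 1) of each tested proteasome gene minus its dsGFP mean, for the 16 libraries grouped as Tfap2cKD, Tead4KD, DoubleKD and dsGFP, with rows ordered by role and colours ending at a difference of 1 either way. The column Tfap2cKD B1 is blue (below the dsGFP mean) across most core and ATPase rows, and Psme1, Psmb10 and Psme4 follow the cross.

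Summed over the 31 constitutive subunits, levels were 12243 ± 1087 FPKM in Tfap2cKD, 12983 ± 991 FPKM in Tead4KD and 12346 ± 329 FPKM in DoubleKD, against 12576 ± 968 FPKM in dsGFP (SD, n = 4 each). The groups overlapped. The 14 core subunits summed to 7749 ± 779 FPKM in Tfap2cKD, 8182 ± 547 FPKM in Tead4KD and 7832 ± 300.1 FPKM in DoubleKD, against 7874 ± 724 FPKM in dsGFP, and the 17 of the regulatory particle to 4493 ± 315, 4801 ± 448 and 4514 ± 69.6 FPKM in the same knockdowns, against 4702 ± 272 FPKM in dsGFP. DoubleKD had the smallest spread of the 4 groups in each of these sums.

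Of 8 genes that act on proteasome transcription and upstream of it, Nfe2l1 and Nfe2l2 among them, 1 was called in DoubleKD, Ufd1l, higher at 140.2 ± 6.86 against 115.9 ± 9.05 FPKM (limma adjusted p = 0.0125), and none in the single knockdowns. None of 6 ubiquitin and ubiquitin-activation genes was called in any of the 3. Of 12 antigen-processing and interferon genes 5 were tested, and Irf9, part of the interferon-activated transcription complex, was called in all 3. It was at 1.40 ± 0.557 FPKM in Tfap2cKD, 14.4 ± 3.00 FPKM in Tead4KD and 1.87 ± 0.750 FPKM in DoubleKD, against 7.19 ± 1.40 FPKM in dsGFP. The other 4 were not called in these comparisons. Beside these lists, 29.6% of all genes tested were called in Tfap2cKD, 6.13% in Tead4KD and 25.1% in DoubleKD.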

How the data were processed

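Embryos were lysed as pools and their polyadenylated RNA was made into libraries with a Smart-seq2 protocol, per the labels' protocols. The authors deposited 1 table of FPKM values per gene and library. The submitters' processing notes name CASAVA, Trim Galore, STAR, Cufflinks and mm10, without saying what each did, and the version, strand setting and annotation are likewise not stated there. Of 43496 lines, 59 were a second line for the same identifier and were dropped, and 0 columns belonged to no sample. No counts were given, so the depth of each library is unknown. Ratios of low FPKM values to those in dsGFP A1 were searched for the simple steps that small whole read numbers would give. Only 37.2% to 41.0% of ratios lay near such a step, so no count test was run and relative depth is an estimate. The share that would lie near a step by chance was not computed.

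From the FPKM values, log2(FPKM + 1) was computed. The model was run in limma 3.58.1 (R 4.3.3) over all 16 libraries, with group and cross as terms, trended empirical Bayes moderation and Benjamini-Hochberg adjustment over the 11422 genes tested. Adjusted p-values here come from that fit. The interaction with cross was fitted likewise. The fit was also run on simulated data with known changes, with independent noise and no cross effect. Changes were placed only in genes above a set mean level. The simulation therefore cannot speak to genes below that level or to changes that differ by cross. The members, gene lists and tests were chosen with earlier results of these data known. Per-library values are given for members called against dsGFP or in the non-additive part, the highest and lowest 3 of those tested in dsGFP, the exchangeable pairs, the activators, the inhibitor, the chaperones and the 3 largest cross differences. For some of these genes the values cover only part of the groups. Psmd3 and Psmb2 were chosen after their values were seen. Motifs were searched in RefSeq promoters of GRCm38.p6. Alternatives were another pseudocount (0.1), no filter or a mean of at least 5 FPKM, TPM, median-ratio and quantile scaling, no cross term, a replicate block, no trend, only the groups compared, and each library left out. The result for 1 list of related genes is not reported here.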

Additional observations from a re-analysis of the deposited data

Results flagged for a closer look

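In 4 of the 180 sets of 4 libraries examined (45 members in 4 groups), 1 library stood apart from the others of its group by Dixon's 95% criterion, which chance alone meets in about 1 of 20 sets. Psma4 was at 364 FPKM in Tead4KD A2, and the other Tead4KD libraries lay between 308 and 315 FPKM. Psmd11 was at 585 FPKM in DoubleKD B2, and the others lay between 662 and 673 FPKM. Psmd13 was at 35.2 FPKM in DoubleKD B1, with the others between 29.1 and 29.9 FPKM, and at 35.1 FPKM in dsGFP B1, with the others between 33.6 and 33.8 FPKM. None of these 3 genes was called in any comparison of groups.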

How the results depend on the processing

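In Tfap2cKD against dsGFP, Psmc4 and Psmg2 stayed called under all 26 alternatives. The count of 2 called members became 8 (0 higher, 8 lower) with median-ratio rescaling and 4 (2 higher, 2 lower) with quantile normalization, and ran from 2 to 5 with 1 library left out. In Tead4KD it was 0 to 1 with 1 library left out. In DoubleKD the count of 2 became 0 with no filter on low values, 0 without the cross term and 0 with the replicate block, 1 with a mean of at least 5 FPKM, 1 with TPM and 1 without the trend, 4 with median-ratio rescaling and 4 with quantile normalization, and ran from 0 to 4 with 1 library left out. Between DoubleKD and Tead4KD the 5 calls became 3 with no filter and 2 without the cross term (3 to 7 with 1 library left out). Between Tfap2cKD and Tead4KD the 6 became 2 without the cross term. Between the crosses the 13 became 6 with no filter (8 to 18 with 1 library left out). For the interaction with cross the 0 became 1, Psmb2 in Tfap2cKD, with no filter and 1 with a mean of at least 5 FPKM (0 to 1 with 1 library left out). Psme2 in Tead4KD, near no change, turned positive without Tead4KD A2 (0.03), Tead4KD B1 (0.0058) and dsGFP B1 (0.13), and ran from -0.12 to 0.13 with 1 library left out. The causes were not tested.

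Rescaling moved the split of all calls. In Tead4KD 54.7% of all called genes were higher, against 38.8% with median-ratio rescaling and 42.1% with quantile normalization, and the members' median log2 change of 0.04 became -0.03 with the first. In Tfap2cKD the higher share was 55.3%, against 45.9% with median-ratio rescaling. The members' median there of -0.04 became -0.09 with median-ratio rescaling and -0.03 with quantile normalization. In DoubleKD the members' median of -0.04 became -0.09 with median-ratio rescaling and 0.01 with quantile normalization.

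Libraries of the same number deviated together from their group means (r of 0.03 to 0.31, 23 of 24 pairs over 0.1), but after removal of the cross mean r was -0.17 to 0.18, with 4 of 24 pairs over 0.1, all 4 of them between Tfap2cKD and dsGFP (0.13 to 0.18). With 2 libraries per group and cross, the pairs of a cross share 1 value there. The labels do not say what the numbers mark. The replicate block left the 2 calls in Tfap2cKD and took both from DoubleKD. Depth is unknown, so no interval for counting error could be given for members near 1 FPKM.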
